A study of Schmidtea mediterranea with 48 samples.

Results

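Follistatin (fst) RNAi wounds were compared with control RNAi wounds at amputation, before any regeneration, in 6 of the 48 libraries of the series. The members were taken by their labels: 3 libraries of fst RNAi at 0 hours post amputation (hpa) and 3 libraries of control RNAi at 0 hpa, both from animals of the asexual planarian strain CIW4 of Schmidtea mediterranea that were fed double-stranded RNA 6 times in 3 weeks. For the controls the double-stranded RNA matched unc-22 of the nematode C. elegans. Poly(A) RNA came from the wound faces of tail fragments, with 5 wounds in each library. Later libraries of the same experiment (fst and control RNAi at 6, 24 and 48 hpa) were used for comparison, with 3 libraries in each group. A second experiment gave myoD and unc-22 RNAi libraries at 0 hpa and unc-22 controls at 6, 24 and 48 hpa, also 3 per group. Its animals were fed 10 times in 5 weeks by the labels, while the series text gives 8 feedings. Fits of the second experiment also held its later myoD libraries. The labels do not say whether the wounds of different replicates came from separate sets of animals, so p-values measure the spread between these libraries, which may be technical.

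Follistatin is a secreted protein that binds Activin-type ligands of the TGF-beta family and keeps them from their receptors. In planarians, follistatin is expressed at wounds and is needed for the sustained response to missing tissue, and animals with reduced follistatin can fail to regenerate some missing parts. A tail fragment has to rebuild a head, so its wound face at 0 hpa shows the tissue in which that response is about to start. In bulk RNA, fewer cells of a type and less RNA per cell cannot be told apart.

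Total counts were 10209839, 17654842 and 19092412 in the fst libraries, against 15716023, 22065480 and 16176947 in the control libraries. The most abundant transcript took 10.8% to 11.6% of the counts in fst libraries and 10.3% to 10.9% in control libraries. Transcripts are given by the identifiers of the assembly, because the deposited files pair 0 of them with a gene name, and 0 of 11 lists of pathway genes and cell type markers had a member that matched. Therefore the level of the targeted gene could not be read, neither the tissue nor any other cell type could be checked by its markers, and no list of named genes of the Activin, BMP or Wnt pathways could be followed. The labels list under the control libraries the deposited time comparisons of fst, and under the fst libraries those of control. The deposited group means, however, were weighted sums of the count columns of the same name, with relative residuals under 1e-09. With the columns of the other group the largest relative residual was 7.08 or more.

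At amputation, 69 transcripts were higher and 46 lower in fst than in control wounds, out of 17815 tested (edgeR quasi-likelihood test, Benjamini-Hochberg adjusted p under 0.05). These 115 calls were 0.646% of the transcripts tested, with 0.387% higher and 0.258% lower. The changes were small: the higher transcripts had a median fold of 1.48 (1.26 to 8.75), and the lower ones a median fall of 1.61-fold (1.29 to 7.94). Of the 69 higher transcripts, 10 were at least 2-fold higher and 35 under 1.5-fold; of the 46 lower, 8 were at least 2-fold lower and 16 under 1.5-fold. The count was 322 without fst replicate 1 at 48 hpa, a library that the labels mark for human contamination and that enters the shared spread, and 114 of the 115 were among these 322. It was 54, 32 and 23 without fst replicate 1, 2 or 3 and 24, 17 and 52 without control replicate 1, 2 or 3. With only the 6 libraries of 0 hpa it was 990 (409 higher, 581 lower). With all 48 libraries it was 365 (179 higher, 186 lower). The balance of rises and falls thus depended on the libraries in the fit.

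**Figure D1:**
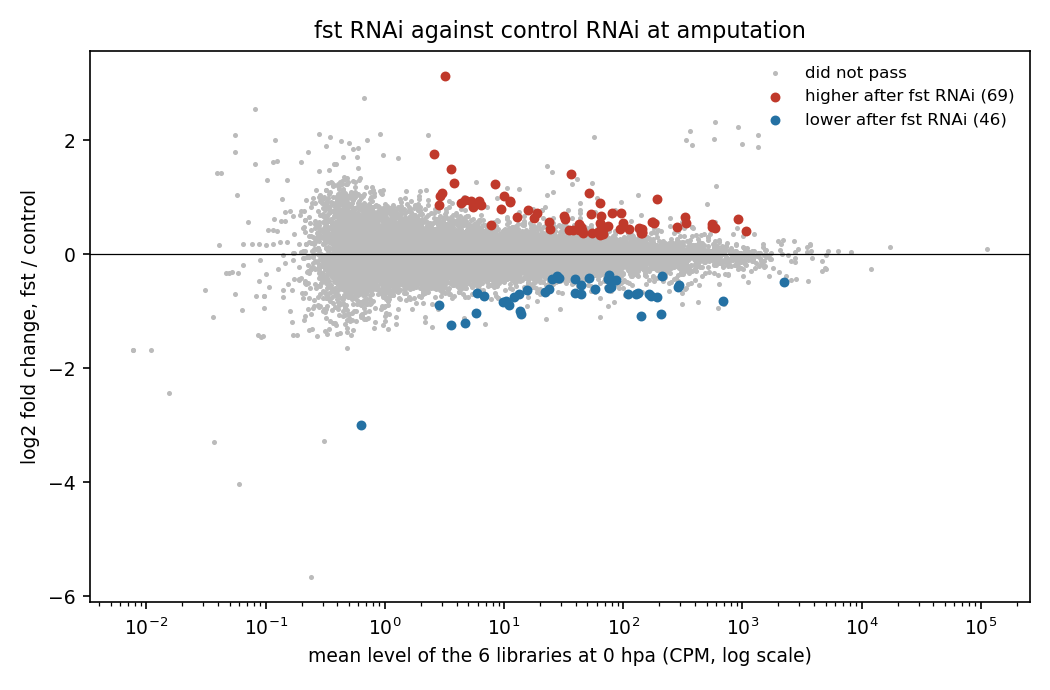
Log2 fold change of fst over control RNAi at 0 hpa against the mean level over the 6 libraries in CPM (log axis), with 1 point per transcript tested. The 69 transcripts that passed as higher (red) and the 46 that passed as lower (blue) had mostly modest changes, and several abundant transcripts with a log2 fold change near 2 (grey) did not pass.

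The smallest changes that passed were smaller at higher read depth. Among the 6871 transcripts with a mean of under 100 reads in the 6 libraries, the median standard error of the log2 fold change was 0.31, and 0.262% were called, all with a log2 change of at least 0.68 in either direction. Among the 8085 with 100 to 1000 reads, the median standard error was 0.13 and 0.594% were called, down to a log2 change of 0.38. Among the 2859 with more reads, it was 0.10 and 1.71% were called, down to a log2 change of 0.34. A total of 222 transcripts differed by at least 2-fold between the groups, and 204 of these did not pass. The largest fall among the calls, in a transcript not named here, rested on 6 counts in the fst libraries against 58 in the controls (0.139 ± 0.121 CPM and 1.11 ± 0.0400 CPM, SD, n = 3; edgeR adjusted p = 0.0270).

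The transcript with the smallest adjusted p was lower after fst RNAi. dd_Smed_v4_9584_0_1 had 8.98, 9.08 and 9.10 CPM (counts per 1000000 counts of the library, TMM-scaled) in fst wounds, against 18.5, 17.4 and 20.5 CPM in control wounds. The 3 fst libraries were close to each other, and all lay below the lowest control. Named transcripts were chosen among calls without overlap at 0 hpa, so that separation followed from the choice. The means were 9.05 ± 0.0641 CPM after fst RNAi and 18.8 ± 1.59 CPM in controls (SD, n = 3). The log2 fold change was -1.05 (SE 0.11, edgeR adjusted p = 7.28e-06), or 2.07-fold lower. Between 89 and 169 reads per fst library and 281 to 375 per control library stood behind these values.

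This difference was present at every later time, in other libraries. At 6 hpa dd_Smed_v4_9584_0_1 had 11.9 ± 0.476 CPM after fst RNAi and 22.3 ± 3.30 CPM in controls (SD, n = 3 each; a log2 fold change of -0.91, edgeR adjusted p = 3.05e-05). At 24 hpa it had 11.5 ± 0.909 and 25.9 ± 1.22 CPM in fst and control wounds (-1.17, edgeR adjusted p = 1.25e-07). At 48 hpa it had 8.96 ± 0.295 CPM after fst RNAi and 24.1 ± 1.36 CPM in controls (-1.43, edgeR adjusted p = 3.79e-09). The fst and control libraries did not overlap at any of the 4 times, at 0 hpa by the choice of named transcripts. A test of whether the fst effect varied with time missed the threshold (edgeR joint interaction, adjusted p = 0.223). In the second experiment at 0 hpa the same transcript had 18.9, 18.8 and 17.5 CPM after myoD RNAi, against 20.3, 18.9 and 17.4 CPM in its own controls. The groups there overlapped (log2 fold change -0.04, SE 0.08, edgeR adjusted p = 0.976), and the fst effect differed from the myoD effect by -1.03 on the log2 scale (SE 0.12, edgeR adjusted p = 1.02e-06). Without gene names, whether dd_Smed_v4_9584_0_1 is the targeted transcript could not be told.

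The other named fall was smaller and less secure. dd_Smed_v4_609_0_1 had 1863, 1911 and 1748 CPM in fst wounds, against 2855, 2238 and 2662 CPM in control wounds. The highest fst library lay below the lowest control, control replicate 2, as the choice of named transcripts required. The means were 1841 ± 83.7 CPM after fst RNAi and 2585 ± 316 CPM in controls (SD, n = 3 each; a log2 fold change of -0.49, SE 0.09, edgeR adjusted p = 0.00937). The call was lost without fst replicate 3 (edgeR adjusted p = 0.0975), without control replicate 1 (0.101) and without control replicate 3 (0.0507). The authors' deposited table gives an adjusted p of 0.117 for it. At 24 hpa it was again lower, at 1869 ± 132 CPM in fst and 2628 ± 46.5 CPM in control wounds (SD, n = 3; edgeR adjusted p = 0.00499), while at 6 and 48 hpa its log2 fold changes of -0.27 and -0.20 did not pass (edgeR adjusted p = 0.170 and 0.185).

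The rise with the smallest adjusted p was shared with myoD RNAi. dd_Smed_v4_4065_0_1 had 222, 211 and 217 CPM in fst wounds, against 149, 146 and 148 CPM in control wounds. Both groups were tight, with 216 ± 5.63 CPM after fst RNAi and 148 ± 1.19 CPM in controls (SD, n = 3 each; a log2 fold change of 0.55, SE 0.06, edgeR adjusted p = 7.24e-05). In the second experiment it had 197, 189 and 194 CPM after myoD RNAi at 0 hpa, against 146, 133 and 142 CPM in controls (log2 fold change 0.46, SE 0.05, edgeR adjusted p = 2.36e-06). The fst and myoD effects differed by 0.08 on the log2 scale (SE 0.08, edgeR adjusted p = 0.857). The fst effect on it had smaller values later: the log2 fold change was 0.36, 0.27 and 0.18 at 6, 24 and 48 hpa, and the last did not pass (edgeR adjusted p = 0.0972; 0.0206 without the contaminated library). The effect at 48 hpa was smaller than that at 0 hpa (difference -0.37, SE 0.09, edgeR adjusted p = 0.0336), whereas the joint test over all times missed the threshold (edgeR adjusted p = 0.0928).

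dd_Smed_v4_11220_0_1 was higher at amputation and no longer differed detectably a day later. It had 11.6, 12.5 and 16.3 CPM in fst wounds, against 6.19, 6.63 and 7.24 CPM in control wounds. The 2 groups did not overlap, as the choice of named transcripts required, and fst replicate 3 was the highest. The means were 13.5 ± 2.50 CPM after fst RNAi and 6.69 ± 0.528 CPM in controls (SD, n = 3). The log2 fold change was 1.02 (SE 0.13, edgeR adjusted p = 0.000150). At 6 hpa the level was 20.1 ± 0.762 CPM in fst and 12.9 ± 0.292 CPM in control wounds (SD, n = 3; edgeR adjusted p = 0.00926). At 24 hpa it was 14.4 ± 1.53 and 13.1 ± 1.001 CPM in fst and control wounds, and at 48 hpa 14.1 ± 1.72 and 16.4 ± 1.28 CPM (SD, n = 3; edgeR adjusted p = 0.840 and 0.328). The fst effect on it varied with time (edgeR joint interaction, adjusted p = 0.000568) and differed from the myoD effect at 0 hpa, where myoD RNAi gave a log2 fold change of -0.01 (difference 1.02, SE 0.17, edgeR adjusted p = 0.000493). In the controls of the second experiment, which share no library with this comparison, dd_Smed_v4_11220_0_1 rose after amputation, by log2 0.52 at 6 hpa, 0.48 at 24 hpa and 0.72 at 48 hpa (edgeR adjusted p = 0.00119, 0.00149 and 3.72e-06).

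**Figure D2:**
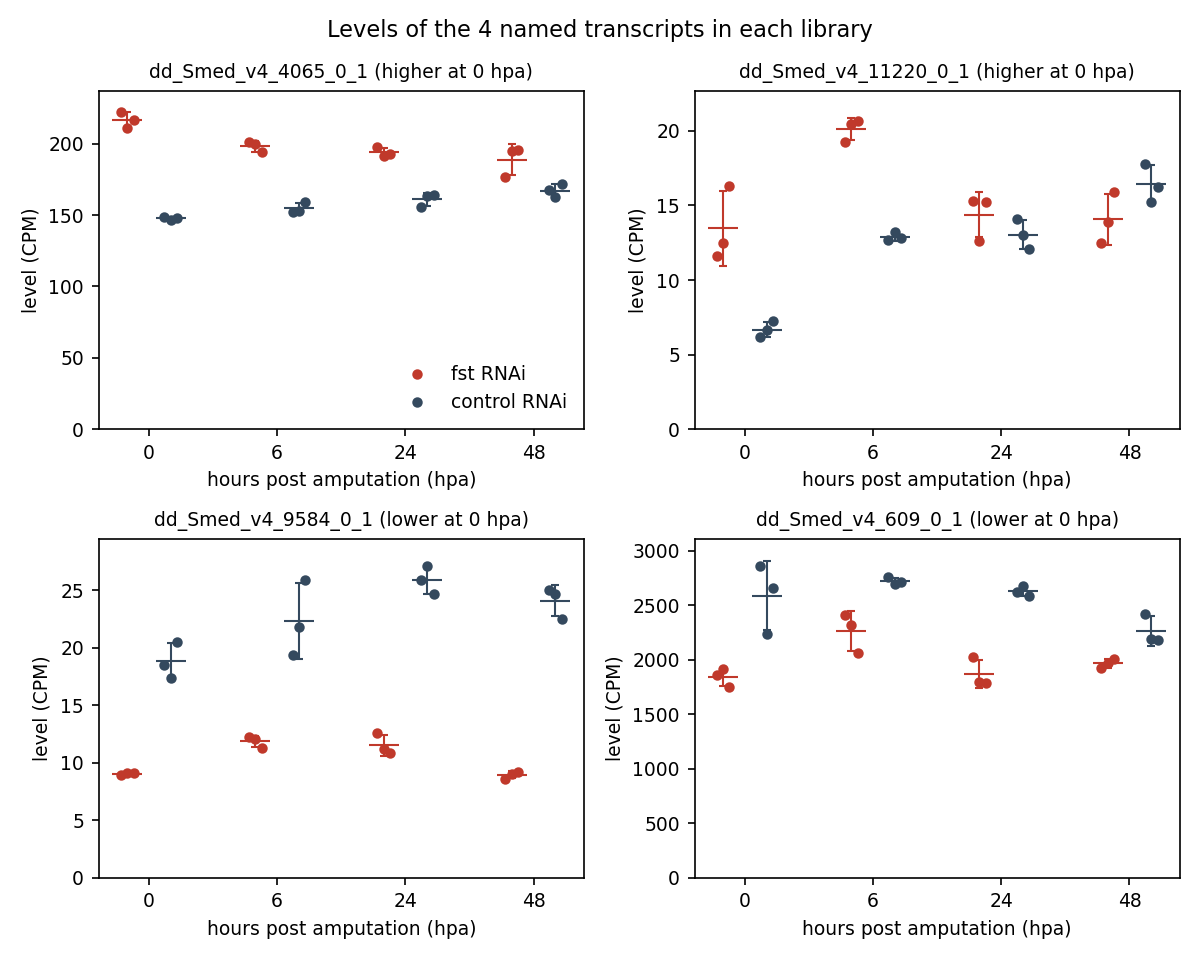
Level in CPM of the 4 named transcripts in each library at 0, 6, 24 and 48 hpa, with fst RNAi in red at the left of each pair and control RNAi in dark blue at the right. Points are libraries, and bars are mean and SD (n = 3). dd_Smed_v4_9584_0_1 lies between 8.62 and 12.6 CPM in fst wounds and between 17.4 and 27.1 CPM in control wounds, while the groups of dd_Smed_v4_11220_0_1 overlap from 24 hpa on.

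The 3 fst libraries had similar medians over the transcripts that were chosen by these values. Over the 69 higher transcripts, the median log2 level above the control mean was 0.58, 0.58 and 0.61 in fst replicates 1, 2 and 3, while each control library lay between -0.06 and 0.08 of the other controls. Over the 46 lower transcripts, the fst medians were -0.64, -0.65 and -0.70, and the control libraries lay between -0.06 and 0.13. These values chose the transcripts and are a description. For all 115 transcripts the 3 fst and 3 control libraries did not overlap, which was true of 24.9% of all transcripts tested. The test that chose the 115 favours such a separation. Passing in each of the 6 fits without 1 library of 0 hpa were 12 of the higher and 1 of the lower transcripts, which was dd_Smed_v4_9584_0_1. The 12 included dd_Smed_v4_4065_0_1 and dd_Smed_v4_11220_0_1 and had log2 fold changes of 0.47 to 3.13, with a median of 0.82.

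**Figure D3:**
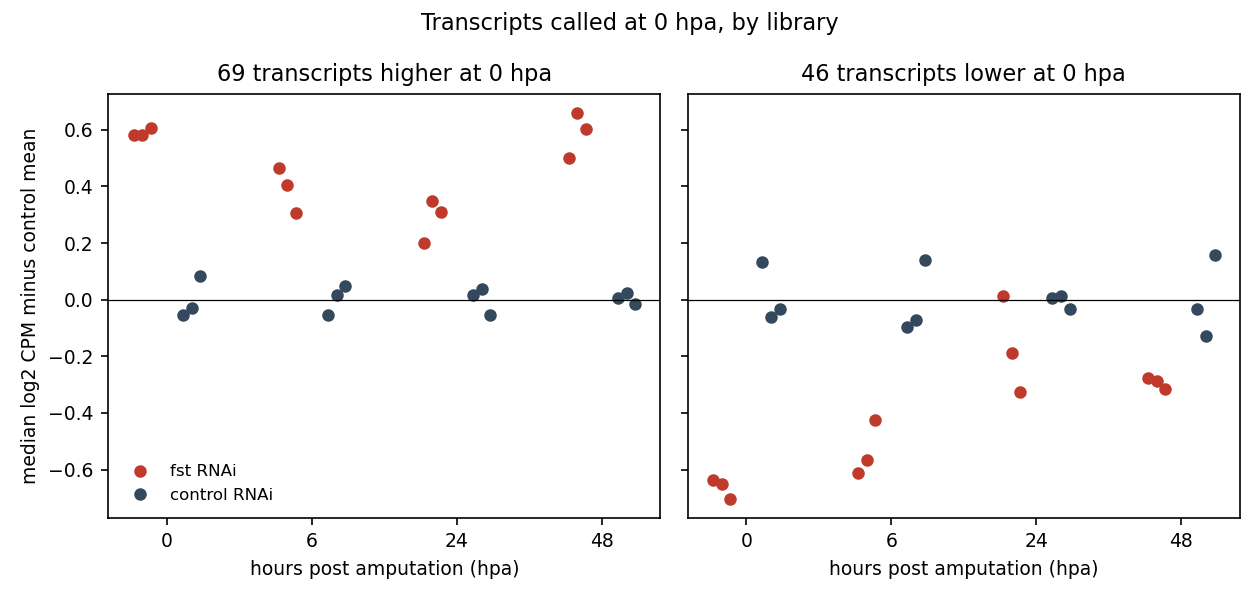
Median over the 69 transcripts higher (left) and the 46 lower (right) at 0 hpa of the log2 CPM minus the mean of the control libraries of the same time, with 1 point per library. A control library is set against the other control libraries of its time. The fst libraries (red) stand above 0 at all times on the left, and on the right below 0 except fst replicate 1 at 24 hpa, at 0.01.

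The transcripts called at 0 hpa were followed to 6, 24 and 48 hpa, where all libraries are others and 0.982%, 0.842% and 7.3% of all transcripts tested were called in either direction. All times share an estimate of spread in the same fit, so passing at 0 hpa and passing later are not independent. Of the 115, 49 had a mean of at least 1000 reads at 0 hpa, against 2859 of all 17815. The shares of all transcripts set beside the 115 are not matched for this depth. Of the 69 higher transcripts, 29 passed as higher at 6 hpa (42.0%, against 0.421% of all transcripts tested), 19 at 24 hpa (27.5%, against 0.544%) and 48 at 48 hpa (69.6%, against 3.7%). In order of time, their median log2 fold changes were 0.57, 0.40, 0.28 and 0.58, beside medians of all transcripts between -0.01 and 0.02. A positive sign was seen for 67, 61 and 61 of the 69 at the later times, against 53.1%, 48.8% and 50.6% of all transcripts. At 48 hpa, 18 of the 69 had passed at least 2-fold higher, and 3 had passed as lower. Without the contaminated library, the 3 later times gave 41, 25 and 51 of the 69 as higher, while 1.42%, 1.18% and 3.24% of all transcripts were called higher.

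The 46 lower transcripts were closest to the controls at 24 hpa. At 6 hpa 23 of them passed as lower (50%, against 0.561% of all transcripts tested) and all 46 had a negative log2 fold change, against 46.9% of all transcripts. At 24 hpa 7 passed as lower (15.2%, against 0.298%), and at 48 hpa 13 did (28.3%, against 3.6%), while 1 and 2 passed as higher. Their medians were -0.69, -0.61, -0.18 and -0.34, in order of time. By library, the median at 24 hpa was 0.01, -0.19 and -0.33 in fst replicates 1, 2 and 3, so that fst replicate 1 lay within the range of the control libraries. The count at 48 hpa was 8 with RLE size factors and 8 without a filter on low counts. Without the contaminated library, 31 of the 46 were lower at 6 hpa (against 1.72% of all transcripts), 7 at 24 hpa (against 0.919%) and 13 at 48 hpa (against 3.44%).

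**Figure D4:**
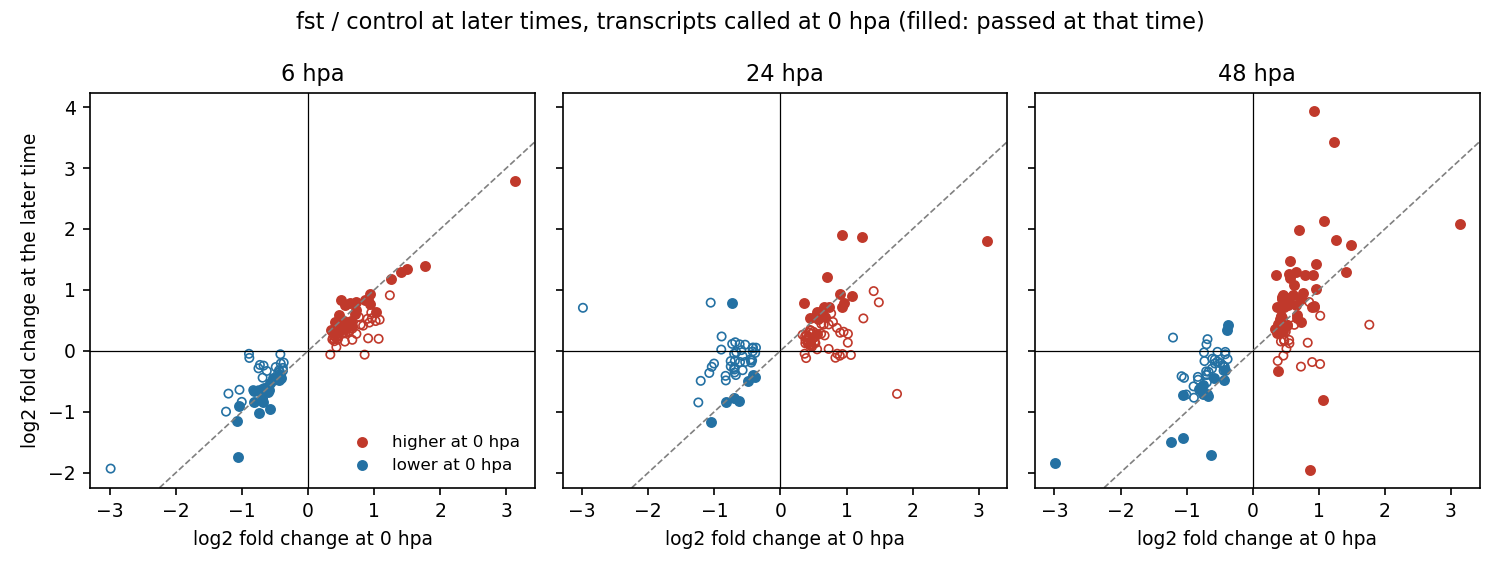
Log2 fold change of fst over control RNAi at 6, 24 and 48 hpa (y axes) against that at 0 hpa (x axes) for the 115 transcripts called at 0 hpa, red if higher and blue if lower there. Filled points passed the test at the later time, and the dashed line marks equal values. Red points spread widely at 48 hpa, where 36 of 69 lie above the line and 3 passed as lower. By the test against 0 hpa, the effect at 48 hpa was larger in 7 of the 69 and smaller or turned in 9. Blue points lie near 0 at 24 hpa.

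Only 12 transcripts of the 17815 passed in the same direction at all 4 times, 10 higher and 2 lower, in the 24-library fit. The medians of the 10 were 0.61, 0.55, 0.72 and 1.25 on the log2 scale, in order of time, with a range of 0.47 to 3.93 at 48 hpa. The 2 lower ones were dd_Smed_v4_9584_0_1 and a transcript that had -0.82, -0.66, -0.85 and -0.63 on the log2 scale, in order of time. At 0 hpa 0.387% of all transcripts tested passed as higher and 0.258% as lower, and 52.1% had a positive sign. Seen from the later times, 29 of the 75 transcripts higher at 6 hpa (38.7%) and 23 of the 100 lower at 6 hpa (23.0%) had already passed at 0 hpa. For 24 hpa these were 19 of the 97 higher (19.6%) and 7 of the 53 lower (13.2%). Of the 659 higher at 48 hpa, 48 (7.28%) had passed at 0 hpa and 471 had a positive sign there, with a median log2 fold change of 0.12. Of the 641 lower at 48 hpa, 13 (2.03%) had passed at 0 hpa and 307 had a negative sign there, with a median of 0.01. That share of negative signs was like that of all transcripts. The fst effect varied with time in 369 transcripts, 2.07% of those tested (edgeR joint interaction). Among the 115 these were 18 of the higher and 11 of the lower transcripts; the values at 0 hpa that chose the 115 also enter this test. Set against 0 hpa, the fst effect at 48 hpa was more positive in 0.629% and more negative in 0.926% of all transcripts, and it was larger in 7 and smaller or turned in 9 of the 69 higher transcripts. Of the 46 lower transcripts, it was larger in 1 and smaller or turned in 2.

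The second experiment gives the same transcripts in other libraries with other controls. After myoD RNAi at 0 hpa 0.588% of all transcripts were called in either direction, and 2 of the 69 higher transcripts passed as higher, against 0.0456% of all transcripts tested there, and 1 of the 46 lower transcripts passed as lower, against 0.542%. The 2 were dd_Smed_v4_4065_0_1 and a transcript with log2 fold changes of 0.43 after fst RNAi (edgeR adjusted p = 0.0179) and 0.35 after myoD RNAi (edgeR adjusted p = 0.00173). The shared fall had log2 fold changes of -0.41 after fst RNAi and -0.47 after myoD RNAi (edgeR adjusted p = 0.0314 and 0.00214). The median log2 fold change after myoD RNAi was -0.08 for the 69 and 0.02 for the 46 transcripts. The difference between the fst and the myoD effect passed for 45 of the 69 and for 20 of the 46, against 0.472% and 0.252% of 18230 transcripts. The fst effect was the larger one in that direction in 69 of 69 and 45 of 46. Over all transcripts 132 differed between the 2 effects, and 65 of these were among the 115. RNAi target, number of feedings and experiment cannot be told apart in this difference, and the 115 were chosen by the fst effect that enters it. At amputation, 95 transcripts were lower after myoD RNAi and had a median fst effect of -0.13 (quartiles -0.23 and -0.05), beside a median of 0.01 over all transcripts. Of these 95, 14 had a positive sign (14.7%, against 52.1% of all transcripts), and 1 passed as lower (1.053%, against 0.258%). Of the 8 transcripts higher after myoD RNAi, 7 had a positive fst effect (87.5%) and 2 passed as higher (25%, against 0.387%), with a median of 0.32.

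**Figure D5:**
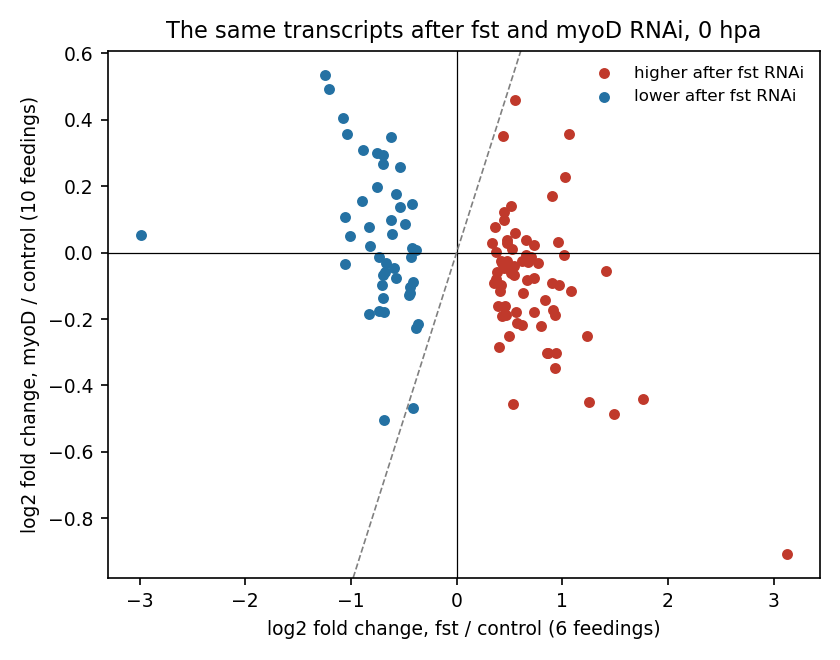
Log2 fold change of myoD over control RNAi (y axis, second experiment) against that of fst over control RNAi (x axis) at 0 hpa for the 115 transcripts, red if higher and blue if lower after fst RNAi. The dashed line marks equal values. The points lie around 0 on the y axis, with medians of -0.08 for the 69 and 0.02 for the 46.

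The controls of the second experiment also show how these transcripts behave after amputation in normal wounds. Of the 69 transcripts higher after fst RNAi, 36 fell by 6 hpa (52.2%, against 9.97% of all transcripts tested), 38 by 24 hpa (55.1%, against 16.5%) and 42 by 48 hpa (60.9%, against 23.3%), with median log2 changes of -0.29, -0.23 and -0.44. Those that rose were 4, 12 and 13 (5.80%, 17.4% and 18.8%, against 9.92%, 14.3% and 20.4%). Of the 46 lower transcripts, 3 fell by 6 hpa (6.52%), 17 by 24 hpa (37.0%) and 18 by 48 hpa (39.1%), and 1, 4 and 8 rose. Abundant transcripts pass more often. Of all 2770 transcripts with at least 1000 reads in those controls, 20%, 32.5% and 46% fell by 6, 24 and 48 hpa. Among the 26 higher transcripts of that depth, 42.3%, 50% and 65.4% fell by these times. Among the 20 lower ones, 5%, 45% and 40% fell. Rises were seen for 3.85%, 11.5% and 11.5% of the 26 and for 0%, 5% and 15% of the 20. Of all transcripts of that depth, 12.9%, 17.1% and 19.1% rose.

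Transcripts with a strong wound response in those controls were looked up at amputation, where 0.387% of all transcripts tested were higher and 0.258% lower after fst RNAi. Of 238 tested transcripts that rose at least 2-fold by 6 hpa in the controls of the second experiment, 1 was higher after fst RNAi at 0 hpa (0.420%), with a median log2 fold change of 0.00. Of 272 that rose by 24 hpa, 2 were higher (0.735%) and 1 lower (0.368%), with a median of 0.16. Of 398 that rose by 48 hpa, 4 were higher (1.005%) and 1 lower (0.251%), with a median of 0.13. Of 67 transcripts that fell by 6 hpa, 3 were higher (4.48%), with a median of 0.14. Of 284 that fell by 24 hpa, 6 were higher (2.11%) and 1 lower (0.352%), with a median of 0.12. Of 599 that fell by 48 hpa, 10 were higher (1.67%) and 4 lower (0.668%), with a median of 0.03. In the list that rose by 6 hpa, the share called higher was near that of all transcripts (0.420% against 0.387%). It was above that of all transcripts in the other lists, those that rose and those that fell. At each time it was larger in the list that fell. It rested on 1 to 10 calls per list, without matching for read depth, and was not tested. Lists of different times share their 0 hpa controls and can share transcripts. All transcripts had a median of 0.01.

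The authors' deposited table for this comparison calls 46 transcripts higher and 23 lower at its adjusted p under 0.05, which is 0.27% of the 25523 with a value. Of the 115 transcripts, 51 (44.3%) were called in the same direction in the authors' deposited table, and these were 73.9% of its calls. The sign of the fold in the authors' deposited table was the same for all 115. For dd_Smed_v4_9584_0_1 the authors' deposited table gives a log2 fold change of -1.06 with an adjusted p of 7.27e-06, for dd_Smed_v4_11220_0_1 1.01 with 1.77e-05, and for dd_Smed_v4_4065_0_1 0.55 with 0.0365.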

How the data were processed

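Poly(A) RNA of planarian wound faces was sequenced. Per the labels' protocols, the kit was Kapa Stranded mRNA-Seq. Tools named in the submitters' processing notes are Bowtie 1.1.1, cutadapt 1.8, CASAVA, DESeq and SAMtools. The use of strand in counting was not stated there. The deposited count table holds raw read counts for 26563 transcripts and 48 libraries. In the authors' pairwise table for fst at 0 hpa, group means are a signal (counts divided by size factors, averaged), the fold is a ratio of fst to control, with its log2, and p-values are given with and without adjustment; per the file headers.

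The counts were fitted by edgeR 4.0.16 in R 4.3.3: filterByExpr, TMM scaling, robust quasi-likelihood F-tests, 1 coefficient per group over the 24 libraries of the 6-feeding experiment, which share 1 estimate of spread (biological coefficient of variation 13%; 10.9% without the contaminated library, 9.24% with the 6 libraries of 0 hpa alone). The 10-feeding libraries were fitted apart, and all 48 together for the difference between fst and myoD effects. A transcript was called at adjusted p under 0.05. CPM are TMM-scaled; SE is the absolute log2 fold change over the square root of F. Named transcripts are the 2 rises and 2 falls with the smallest adjusted p among calls that reached a mean of 1 CPM in either group without overlap between groups. Transcripts compared and lists were chosen with earlier results of these data known. Of 317 transcripts that share a component number of the assembly with another, 1 was among the calls. Replicate libraries of a group differed by more than sampling noise (chi-square per degree of freedom 6.42 to 12.8). Scripts were tested on simulated data. DESeq2 1.42.0, RLE factors, other filters, other sets of libraries, each library left out and a replicate block were tried.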

Additional observations from a re-analysis of the deposited data

Results flagged for a closer look

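The effect of fst RNAi differed between times in 369 transcripts by the joint interaction test of edgeR. The fst effect at 0 hpa differed from the myoD effect at 0 hpa in 132 transcripts.

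Among the named transcripts, the fst effect on dd_Smed_v4_11220_0_1 differed between times (edgeR joint interaction, adjusted p = 0.000568) and between 48 and 0 hpa (log2 difference -1.24, edgeR adjusted p = 0.000256). The fst effect on dd_Smed_v4_4065_0_1 differed between 48 and 0 hpa (log2 difference -0.37, edgeR adjusted p = 0.0336). The fst effect at 0 hpa differed from the myoD effect for dd_Smed_v4_9584_0_1 (edgeR adjusted p = 1.02e-06), dd_Smed_v4_11220_0_1 (0.000493) and dd_Smed_v4_609_0_1 (log2 difference -0.59, edgeR adjusted p = 0.0194).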

How the results depend on the processing

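With RLE size factors, no filter on low counts or a filter of at least 1 CPM in 3 of the 6 libraries, the number of calls at 0 hpa was 116, 99 and 133, and the number followed to 48 hpa as lower was 8 under the first and 8 under the second. Directions of the 4 named transcripts were kept under all alternatives run; dd_Smed_v4_9584_0_1, dd_Smed_v4_4065_0_1 and dd_Smed_v4_11220_0_1 passed under each, and dd_Smed_v4_609_0_1 lost its call under the replicate block (edgeR adjusted p = 0.0827) and without 3 single libraries. The libraries that enter the fit moved the counts most. With only the 6 libraries of 0 hpa there were 990 calls (409 higher, 581 lower, 37 at least 2-fold), 114 of them among the 115. With all 48 libraries there were 365 calls (179 higher, 186 lower, 37 at least 2-fold); of these 78, 38 and 107 were higher and 88, 18 and 39 lower also at 6, 24 and 48 hpa, and 1066 transcripts varied with time. DESeq2 gave 263 calls (150 higher, 113 lower, 30 at least 2-fold), with 68, 33 and 90 higher and 63, 13 and 28 lower also at those times, and 738 with time. The difference from myoD had 581 calls with the 12 libraries of 0 hpa and 222 with DESeq2. Without single libraries of 0 hpa there were 17 to 54 calls, 15 to 43 higher, 2 to 13 lower and 5 to 15 at least 2-fold; 10 to 19, 6 to 11 and 9 to 31 were higher and 1 to 9, 1 to 5 and 1 to 4 lower also at 6, 24 and 48 hpa; 277 to 299 varied with time, and 61 to 113 differed from myoD (an alternative chosen after seeing the data, as were the transcripts passing without every single library and the 115 followed without the contaminated library). Without fst replicate 1 of 48 hpa there were 322 calls (183 higher, 139 lower, 31 at least 2-fold), with 84, 44 and 97 higher and 70, 19 and 26 lower also at later times, and 744 with time. No pairing of libraries by replicate number was seen (correlation of deviations 0.08, -0.12 and -0.06 for numbers 1, 2 and 3). With 3 libraries per group, these values cannot show that the design was unpaired. With the replicate block there were 33 calls, all among the 115 (25 higher, 8 lower, 9 at least 2-fold), with 9, 6 and 19 higher and 5, 2 and 4 lower also at later times, and 173 with time. The causes of these shifts were not tested. Among transcripts with a mean of under 100 reads, no log2 change smaller than 0.68 passed at this depth.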

Other observations

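A group of abundant transcripts stood several-fold higher after fst RNAi at amputation without passing the test. Among 3429 transcripts with a mean of at least 50 CPM over the 6 libraries, 14 differed by at least 2-fold and did not pass, 13 of them higher and 1 lower after fst RNAi; this selection was made after their values were seen and has no test of its own. The 13 had a median log2 fold change of 2.01 (1.04 to 2.33) with edgeR adjusted p between 0.0649 and 0.658. For 12 of them the 3 fst and 3 control libraries did not overlap, which was true of 24.9% of all transcripts tested. The choice by fold in these same libraries favours such a separation. Their median level was 557, 982 and 774 CPM in fst replicates 1, 2 and 3, against 260.3, 41.3 and 284 CPM in control replicates 1, 2 and 3. The controls differed among themselves more than the fst libraries did, with control replicate 2 the lowest.

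The same 13 varied between libraries at other times. At 6 hpa their median was 1473, 1374 and 730.0 CPM in fst wounds, against 324, 536 and 861 CPM in control wounds. At 24 hpa it was 45.2, 606 and 558 CPM in fst wounds, against 691, 438 and 580.3 CPM in control wounds, so that fst replicate 1 of 24 hpa was as low as control replicate 2 of 0 hpa. At 48 hpa it was 1073, 783 and 756 CPM in fst wounds, against 453, 494 and 251 CPM in control wounds. Of the 13, 1 passed there as higher (edgeR adjusted p under 0.05), beside 3.7% of all transcripts tested. That share rests on 1 call. The number of the 13 that passed as higher was 0 for 6 hpa and 0 for 24 hpa. All transcripts tested had shares of 0.421% and 0.544% in these comparisons. In the second experiment at 0 hpa the median was 854, 1567 and 1542 CPM after myoD RNAi, against 2228, 1629 and 2105 CPM in its controls.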
